A study of Homo sapiens with 12 samples.

Results

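Expression of p16 for 5 days was compared with that of the fluorescent protein mVenus alone in MCF10-A cells, an established non-tumorigenic line of human breast epithelium. Of the 12 libraries in the series, the 6 whose titles name p16 induction without Torin2 or mVenus induction were taken, 3 of each, and all 14504 genes with enough counts were tested. Both groups carried a doxycycline-inducible transgene, mVenus fused to p16 in one and mVenus alone in the other, and both received 50 ng/ml doxycycline from 20 hours after seeding. From the next day the medium held doxycycline with DMSO, the solvent, and was renewed every 48 hours. The medium of all cells held horse serum, EGF, insulin, hydrocortisone and cholera toxin. Cells were collected at day 5, and polyadenylated RNA was sequenced. The design text calls the 3 libraries of a group biological replicates. Whether a transgenic line was a clone or a pool is not given in the sources used here. Every library of the series received doxycycline, so a standing difference between the transgenic lines cannot be told apart from an effect of p16. The remaining groups of the series, mVenus fused to p21 and p16 with the mTOR inhibitor Torin2, entered the shared estimate of spread. The p21 group is also set against p16 below. It received 50 ng/ml doxycycline from 20 hours after seeding, without Torin2, and was collected at day 5.

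The protein p16, made from CDKN2A, binds the kinases CDK4 and CDK6 and keeps them from phosphorylating the retinoblastoma protein RB. Unphosphorylated RB holds E2F transcription factors in check, and the genes of DNA replication and mitosis that E2F and the related DREAM and MuvB complexes control stay off. Cells held in this arrest for days can enlarge, change their secreted proteins and become senescent. In stratified epithelia, leaving the cell cycle normally accompanies differentiation from the basal layer outward.

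Levels are in CPM, the usual scaling of counts to library size, here with TMM factors, and a level per library is given in the order of replicates 1, 2 and 3. CPM is relative to the library size after TMM scaling, so it does not measure RNA per cell. In these bulk samples fewer cells of a type and less RNA per cell cannot be told apart. CPM is not corrected for transcript length. Values written as a log2 fold change come from the edgeR quasi-likelihood test, positive where p16 was above mVenus. The value after ± is then a standard error worked out from the fold change and its test statistic. Unless stated otherwise, the libraries of the groups did not overlap for any gene named with a log2 fold change. A gene is said to have risen or fallen where its Benjamini-Hochberg adjusted p over the 14504 genes was under 0.05. That rule called 4487 genes higher (30.9%) and 4751 lower (32.8%), and each list count below is to be read beside these shares. The median over all genes tested was 0.00, with quartiles of -0.36 and 0.34. In all, 9238 genes were called (63.7%), and in 9562 genes (65.9%) the 3 libraries of one group did not overlap with the 3 of the other. A change of 2-fold or more was met by 1031 higher genes (7.11%) and 1356 lower genes (9.35%), and of 8-fold or more by 139 (0.958%) and 221 (1.52%). Most genes moved little, 68.5% by less than 1.5-fold.

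The 6 libraries held 13168749 to 18321114 counts. Replicates correlated across genes at r of 0.992 or more and libraries of different groups at 0.944 or less. The groups lay apart on the first principal component, with 85.2% of the variance. Mitochondrially encoded transcripts took 3.849% to 3.905% of counts in mVenus and 6.331% to 6.912% in p16, and the part of this difference in other genes' shares was not tested. CDKN2A lies at chromosome 9, 21967753 to 21995301 (GRCh38) and had 0 counts in each of the 6 libraries, as did its neighbour CDKN2B. MTAP, the next gene, had 1 count in mVenus and 13 in p16, a ratio of 14.5 (95% exact interval 2.17 to 614). MCF10-A cells are known to have lost this locus, and transgene reads may go uncounted there, so the counts did not check the labels. Of 10 epithelial cell markers, 8 rose and 1 fell (median 1.01), with summed levels of 7029.6 to 7341 CPM in mVenus and 12843 to 13580.2 CPM in p16. Of hormone-receptor luminal markers, PGR, TFF1 and TFF3 had 0 counts in both groups, and of the 4 tested, 3 rose, PRLR (1.22 ± 0.18) among them, and GREB1 fell (-0.30 ± 0.09; median 1.05). The markers of other cell types were few. Of 3 myoepithelial markers tested, 2 fell (MYLK, and ACTA2 with 30.1% of its exonic bases shared; median -1.02), and of 3 fibroblast markers 2 fell, DCN (-1.83 ± 0.11) and COL1A1 (-1.21 ± 0.16; median -1.21). Of 3 endothelial markers 1 rose (PECAM1; median 0.39). Of 8 leukocyte markers only LAPTM5 was tested and rose (0.80 ± 0.06), while PTPRC and CD3E stood at or near 0. The 1 adipocyte and 2 melanocyte markers tested were not called (medians 0.45 and -0.42).

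**Figure D1:**
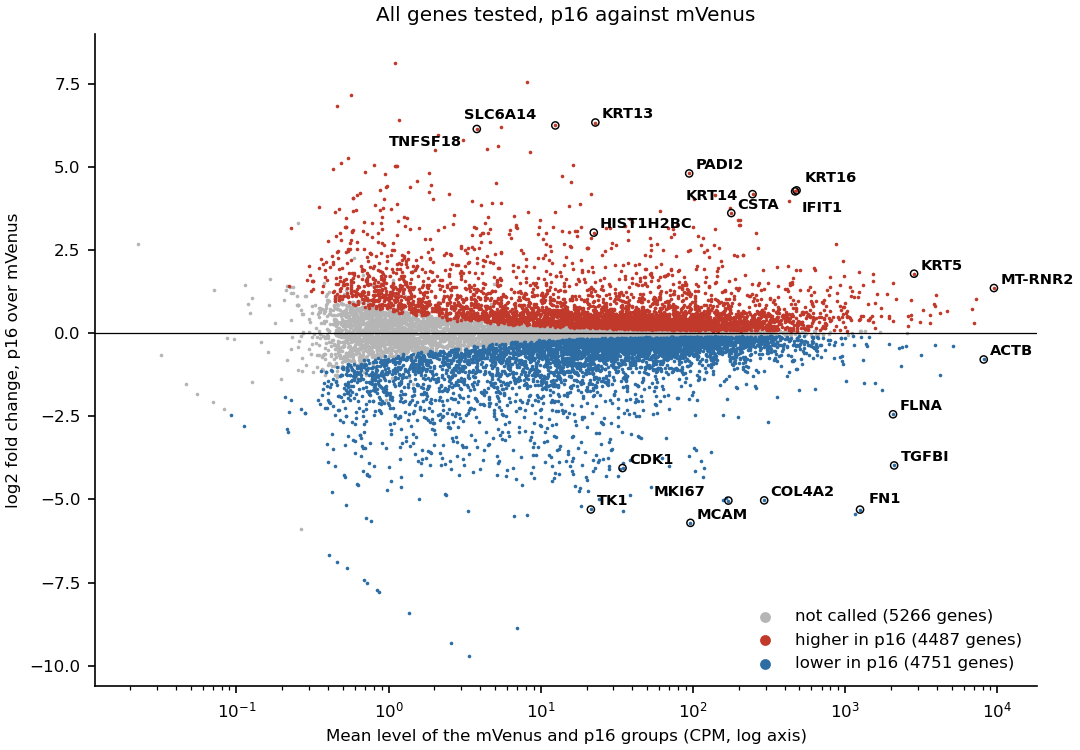
All 14504 genes tested, with the mean CPM of the mVenus and p16 groups on a log axis and the log2 fold change of p16 over mVenus on the other. Red points are the 4487 genes called higher, blue points the 4751 called lower and grey points those not called, and named genes such as KRT13, IFIT1, FN1 and MKI67 are circled far from the line at 0.

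Among genes with at least 20 CPM in the higher group, the 10 largest rises included keratins and genes induced by interferon. KRT13, a keratin of wet stratified epithelia, measured 0.576, 0.073 and 0.871 CPM in mVenus and 50.5, 42.6 and 42.3 CPM in p16. Its libraries were all near 0 in mVenus and all far above in p16, a log2 fold change of 6.35 ± 0.19 (adjusted p = 7.22e-17). SLC6A14, a transporter of neutral and basic amino acids, rose from 0.318 ± 0.0521 to 24.6 ± 1.67 CPM (log2 fold change 6.26 ± 0.18). The tetraspanin CD53 (5.07 ± 0.16), the protein-citrullinating enzyme PADI2 (4.82 ± 0.10), the protease inhibitor A2ML1 (4.72 ± 0.15) and RARRES1, a retinoic acid-responsive membrane protein (4.57 ± 0.14), followed. KRT16 (4.31 ± 0.08), IFIT1 (4.27 ± 0.14), KRT14 (4.19 ± 0.07) and IFITM1 (4.19 ± 0.18) completed them. IFITM1 shares 32.5% of its exonic bases with another gene and is uncertain, since reads were counted without strand.

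The largest falls joined adhesion and matrix genes with genes of DNA replication. MCAM, a cell adhesion molecule, measured 186, 197 and 182 CPM in mVenus and 3.93, 3.69 and 3.18 CPM in p16, with no overlap and a log2 fold change of -5.70 ± 0.08 (adjusted p = 1.23e-21). These values are a 52.1-fold fall. FN1, fibronectin (-5.31 ± 0.10), COL6A3 (-5.21 ± 0.15) and COL4A2 (-5.03 ± 0.08), both collagen chains, and PMEPA1, a membrane inhibitor of TGF-beta signalling (-5.0 ± 0.07), fell likewise. The cell cycle genes among them were FAM111B, a protease (-5.34 ± 0.10), TK1, thymidine kinase (-5.30 ± 0.13), the proliferation marker MKI67 (-5.03 ± 0.06) and the checkpoint adaptor CLSPN (-4.99 ± 0.12).

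By difference in level, where long and abundant transcripts weigh most, the 10 largest gains in CPM were keratins, mitochondrial transcripts and SHC1. They were KRT5, KRT17, the adaptor SHC1, the mitochondrial ribosomal RNA MT-RNR2, and MT-CO1, MT-CO2, MT-ND1, MT-ND4, MT-ND5 and MT-CYB. Together they went from 30802.5 ± 271 CPM in mVenus to 64074 ± 1981 CPM in p16 (SD, n = 3). MT-RNR2 alone went from 5304 ± 193 to 13662 ± 824 CPM, KRT17 from 2423 ± 90.7 to 5441 ± 166 CPM and SHC1 from 1072 ± 24.2 to 3061 ± 173 CPM. Capture with oligo-dT and nuclear copies of mitochondrial sequence both bear on the level of MT-RNR2, whose part in the result was not tested. Among the largest losses were the actins ACTB and ACTG1, FLNA, MYH9, S100A6, TGFBI, FN1 and MT2A. ACTB, beta-actin, which is often used as a reference gene, fell from 10284 ± 234 to 5969 ± 109.9 CPM (-0.78 ± 0.03), and ACTG1 from 5863 ± 164 to 2471 ± 135 CPM (-1.25 ± 0.04).

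Genes of the cell cycle, the process on which p16 acts, were mostly lower. MKI67, expressed in cycling cells, measured 335, 314 and 345 CPM in mVenus and 10.1, 10.5 and 9.69 CPM in p16. Of 7 CDK inhibitor genes, 5 were tested, 4 fell and 0 rose (median -0.52). CDKN2C, which encodes the p16 relative p18, measured 22.3, 19.8 and 21.1 CPM in mVenus and 1.62, 1.98 and 1.35 CPM in p16, with no overlap (-3.67 ± 0.13, adjusted p = 9.29e-16). CDKN2D, for the relative p19, fell by less (-1.79 ± 0.18), and CDKN1A, for p21, was 1.25-fold lower (-0.32 ± 0.04). CDKN1B, for p27, fell as well, and CDKN1C, for p57, was not called.

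Among 20 cyclins, CDKs and their regulators, 14 fell and 4 rose (median -1.24). All 3 D-type cyclins, the partners of CDK4 and CDK6, were among those that rose. CCND2 measured 61.1, 70.5 and 74.1 CPM in mVenus and 176, 178 and 201 CPM in p16, without overlap (1.44 ± 0.06, adjusted p = 2.3e-14). CCND1 rose from 347 ± 2.54 to 459 ± 8.4 CPM (0.40 ± 0.03) and CCND3 from 229.9 ± 11.6 to 299 ± 17 CPM (0.38 ± 0.05). The fourth to rise was the phosphatase gene CDC25B (0.26 ± 0.05). CDK1, the kinase of mitotic entry, measured 58.8, 67.2 and 68.7 CPM in mVenus and 3.06, 3.75 and 4.94 CPM in p16 (-4.05 ± 0.10). CCNE2, a cyclin of S phase entry, fell from 11.2 ± 1.22 to 0.56 ± 0.252 CPM (-4.29 ± 0.22), with 37.1% of its exonic bases shared, which leaves its level uncertain.

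Of the RB family, E2F and DREAM genes, 19 of 20 were tested, 12 fell and 1 rose (median -0.43). The member that rose was RBL2, which encodes p130, the pocket protein of the repressive DREAM complex (0.40 ± 0.05, from 52.2 ± 1.05 to 68.9 ± 0.421 CPM). E2F1, the best known activator E2F and itself an E2F target, fell from 23.3 ± 1.2 to 1.12 ± 0.324 CPM (-4.36 ± 0.14). MYBL2, which turns the MuvB core into an activator of mitotic genes, measured 73.9, 75.4 and 75.8 CPM in mVenus and 2.56, 2.9 and 2.3 CPM in p16. It was the lowest of the list at -4.85 ± 0.10 (adjusted p = 3.86e-19), and its groups were far apart.

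Genes of origin licensing and the CMG helicase, which load and fire replication origins, fell broadly. Of 26, all tested, 22 fell and 2 rose (median -2.02). MCM10, needed to start the helicase, measured 21.5, 22.3 and 24.2 CPM in mVenus and 1.06, 1.19 and 0.88 CPM in p16 (-4.43 ± 0.13, adjusted p = 1.12e-16). The loading factor CDC6 fell from 64.8 ± 4.2 to 4.36 ± 0.632 CPM (-3.90 ± 0.09). Members that rose were subunits of the origin recognition complex, ORC5 (0.50 ± 0.07) and ORC2 (0.17 ± 0.05). MCM6, a subunit of the helicase, has 3 matches to E2F sites in the 150 bases shown here (RefSeq, GRCh38.p14, chr2:135876444-135876593, minus strand), which end before the more upstream of the RefSeq and GENCODE starts. Capitals mark the matches, and the second stretch of capitals holds 2 that overlap on opposite strands.

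MCM6: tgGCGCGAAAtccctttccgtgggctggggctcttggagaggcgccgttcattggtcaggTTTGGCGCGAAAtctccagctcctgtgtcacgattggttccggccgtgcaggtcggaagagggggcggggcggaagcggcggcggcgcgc

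The E2F sites searched were TTTCCCGC, TTTCGCGC, TTTGCCGC and TTTGGCGC on both strands, in the 300 bases that run from 250 upstream of each RefSeq start to 50 downstream. Of 22 licensing genes with a promoter in the table, 11 held a match (50%), against 5.29% of the 10044 promoters of tested genes and 3.33% of all 27305. A match describes the letters and was not tested as a binding site. Among promoters of genes that fell by 8-fold or more, 10.9% held one, and among genes that rose by as much 2.25%.

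Supply of deoxynucleotides followed the same direction. Of 14 tested genes 10 fell and 2 rose (median -0.62). TK1, which salvages thymidine, measured 39.4, 44.3 and 41.1 CPM in mVenus and 1.12, 0.725 and 1.29 CPM in p16 (-5.30 ± 0.13). RRM2, the S phase subunit of ribonucleotide reductase, fell from 102 ± 4.67 to 4.15 ± 0.707 CPM (-4.62 ± 0.09). The genes that rose remove or clean nucleotides. SAMHD1, which degrades deoxynucleotides, rose with overlapping libraries (0.31 ± 0.07, adjusted p = 0.00103), and DCTPP1, a pyrophosphatase, rose (0.39 ± 0.08) with 42.1% of its exonic bases shared, so it is uncertain.

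Histone genes split by kind. Of 13 histone chaperone genes tested, 9 fell and 1 rose (median -0.50). HJURP, the chaperone of the centromeric histone, measured 30.4, 31 and 34.9 CPM in mVenus and 1.37, 1.25 and 1.35 CPM in p16 (-4.59 ± 0.13), and ASF1B, which delivers histones to new DNA, fell from 29.97 ± 1.51 to 2.09 ± 0.325 CPM (-3.84 ± 0.14). The one to rise, HIRA (0.46 ± 0.10), shares 66.5% of its exonic bases and is uncertain. Of the variant histones 8 of 11 fell and 2 rose (median -0.46), with the centromeric CENPA lowest (-4.27 ± 0.21), H2AFZ at -1.86 ± 0.04, and H2AFJ (0.54 ± 0.06) and H2AFY2 (0.56 ± 0.09) higher.

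The clustered histone genes, whose mRNAs in cycling cells end in a stem-loop without a poly(A) tail and are made in S phase, differed by their level in these poly(A)-selected libraries. Of 90, 27 passed the filter on counts, 21 rose and 1 fell (median 0.92). HIST1H2BC measured 4.61, 5.4 and 4.63 CPM in mVenus and 39.3, 39.1 and 40.6 CPM in p16, without overlap (3.03 ± 0.08, adjusted p = 1.43e-17). HIST1H2AC rose from 23.5 ± 0.934 to 99.8 ± 5.97 CPM (2.08 ± 0.06). The member that fell, HIST1H3G, was at low counts (-1.60 ± 0.44, and -2.39 without p16 replicate 3). The summed level of all 90 was 187 to 195 CPM in mVenus and 530.2 to 553 CPM in p16. The rises are those of members that passed the filter. Of the 63 that did not, 18 had 0 counts in both groups, 23 had a higher mean in mVenus and 22 in p16. Of these, 14 held more than 3 counts in mVenus alone and 2 in p16 alone. HIST1H1B, a linker histone named after its values were seen, had 19 counts in mVenus and 2 in p16, a ratio of 8.54 (95% exact interval 2.06 to 75.6). Genes of a histone family are near-identical, so reads may be missing or shared among them.

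Every tested gene of the centromere and kinetochore list fell, 33 of 33 (median -1.68). CENPA was the lowest (-4.27 ± 0.21), and KNL1, the scaffold of the checkpoint at kinetochores, fell from 53 ± 2.2 to 3.13 ± 0.782 CPM (-4.09 ± 0.10). The mitotic kinesins and spindle proteins fell likewise, 19 of 19 tested (median -3.0), and their summed level was 1216 to 1298 CPM in mVenus and 386 to 399 CPM in p16. KIF2C, a kinesin that takes microtubules apart, measured 38.8, 37.3 and 41.3 CPM in mVenus and 1.62, 1.25 and 1.49 CPM in p16 (-4.74 ± 0.12, adjusted p = 4.69e-18). KIF18B fell from 23.6 ± 1.91 to 1.26 ± 0.27 CPM (-4.22 ± 0.15).

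Kinesins listed for the transport of cargo were set beside them. Of 15 tested, 11 fell and 2 rose, with a median of -0.31. KIF3C was lowest (-1.63 ± 0.08) and KIF13B highest (0.24 ± 0.06). The call of KIF3A (0.18 ± 0.06) was lost without mVenus replicate 2 (adjusted p = 0.0562) and without p16 replicate 3 (adjusted p = 0.0882).

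Among mitotic kinases, the spindle checkpoint and the anaphase-promoting complex, 19 of 20 fell and 1 rose (median -2.56). UBE2C, the ubiquitin-conjugating enzyme that works with that complex, measured 34, 33.2 and 35.8 CPM in mVenus and 1.18, 1.12 and 1.56 CPM in p16 (-4.73 ± 0.12), and the kinase AURKB fell from 17.3 ± 1.81 to 0.84 ± 0.376 CPM (-4.34 ± 0.18). MAD1L1, a checkpoint protein, rose (0.21 ± 0.06). The promoters of 4 genes of the mitotic lists are given to show a short element, the cell cycle homology region (TTTGAA or TTCGAA, both strands), known as a contact of the MuvB core. Each run is the 150 bases before the more upstream of the RefSeq and GENCODE starts, with the element in capitals. They lie at chr12:53268149-53268298, plus strand (ESPL1, separase), chr1:43358805-43358954, plus strand (CDC20, activator of the anaphase-promoting complex), chrX:70289940-70290089, plus strand (KIF4A, a chromosome kinesin) and chr1:197146695-197146844, minus strand (ASPM, a spindle pole protein), all on GRCh38.p14.

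ESPL1: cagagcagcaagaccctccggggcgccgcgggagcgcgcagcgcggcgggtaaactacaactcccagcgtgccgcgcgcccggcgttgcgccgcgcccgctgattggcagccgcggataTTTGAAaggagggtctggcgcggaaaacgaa
CDC20: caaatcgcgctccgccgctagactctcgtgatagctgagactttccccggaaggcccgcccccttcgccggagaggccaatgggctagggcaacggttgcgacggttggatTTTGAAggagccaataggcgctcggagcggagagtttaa
KIF4A: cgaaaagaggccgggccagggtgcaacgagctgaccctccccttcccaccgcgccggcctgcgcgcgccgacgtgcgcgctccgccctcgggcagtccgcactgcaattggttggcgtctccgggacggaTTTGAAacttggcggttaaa
ASPM: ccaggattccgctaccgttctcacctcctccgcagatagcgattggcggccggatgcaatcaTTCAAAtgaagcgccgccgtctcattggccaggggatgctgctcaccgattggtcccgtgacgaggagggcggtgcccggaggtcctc

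A match to the element was found in 10 of 15 promoters of the mitotic kinase list (66.7%) and in 14 of 18 of the mitotic kinesin list (77.8%), against 11.3% of the promoters of tested genes. The CCAAT box, searched as CCAAT on both strands, was in 12 of 15 (80%) and 14 of 18 (77.8%), against 36.5%. In the licensing list the homology region was in 2 of 22 promoters (9.09%), and no E2F site was found in the 15 promoters of the mitotic kinase list. The chart of motif shares sets these values side by side.

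**Figure D2:**
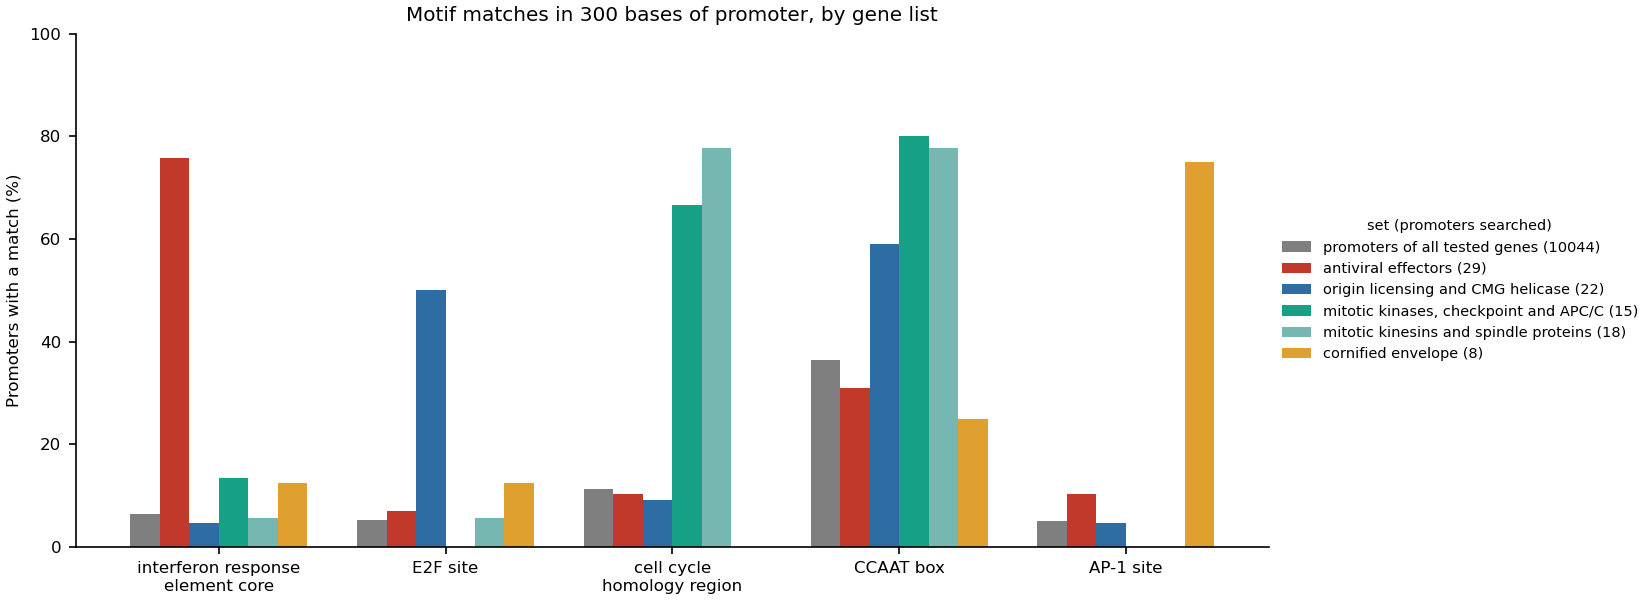
Percent of promoters holding a match to each of 5 motifs, as bars from 0, for all 10044 tested genes with a promoter and for 5 gene lists, with the number of promoters searched in the legend. The interferon response element core is in 75.9% of the antiviral effectors, the E2F site in 50% of the licensing genes and the AP-1 site in 75% of the 8 cornified envelope promoters.

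Chromatin genes fell in part. Of 21 condensin and cohesin genes 17 fell and 0 rose (median -0.84). NCAPH, a subunit of the condensin that compacts mitotic chromosomes, was at -4.23 ± 0.13, and NCAPG at -4.29 ± 0.11 with 33.1% of its exonic bases shared. Of 23 tested Polycomb genes 12 fell and 2 rose (median -0.20). PHF19, an accessory subunit of the methyltransferase complex, measured 41.1, 45.3 and 42.9 CPM in mVenus and 5.3, 5.66 and 5.08 CPM in p16 (-3.0 ± 0.10, adjusted p = 3.89e-16). EZH2, the catalytic subunit that methylates histone H3, fell from 27.3 ± 2.15 to 9.63 ± 0.602 CPM (-1.51 ± 0.08). CBX6 rose (0.76 ± 0.07). Of 9 genes of DNA methylation and demethylation, 7 fell and 0 rose (median -0.78). The maintenance methyltransferase DNMT1 fell from 129 ± 2.16 to 50.4 ± 4.49 CPM (-1.35 ± 0.05) and its recruiter UHRF1 from 44.7 ± 1.21 to 7.66 ± 0.207 CPM (-2.55 ± 0.07).

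**Figure D3:**
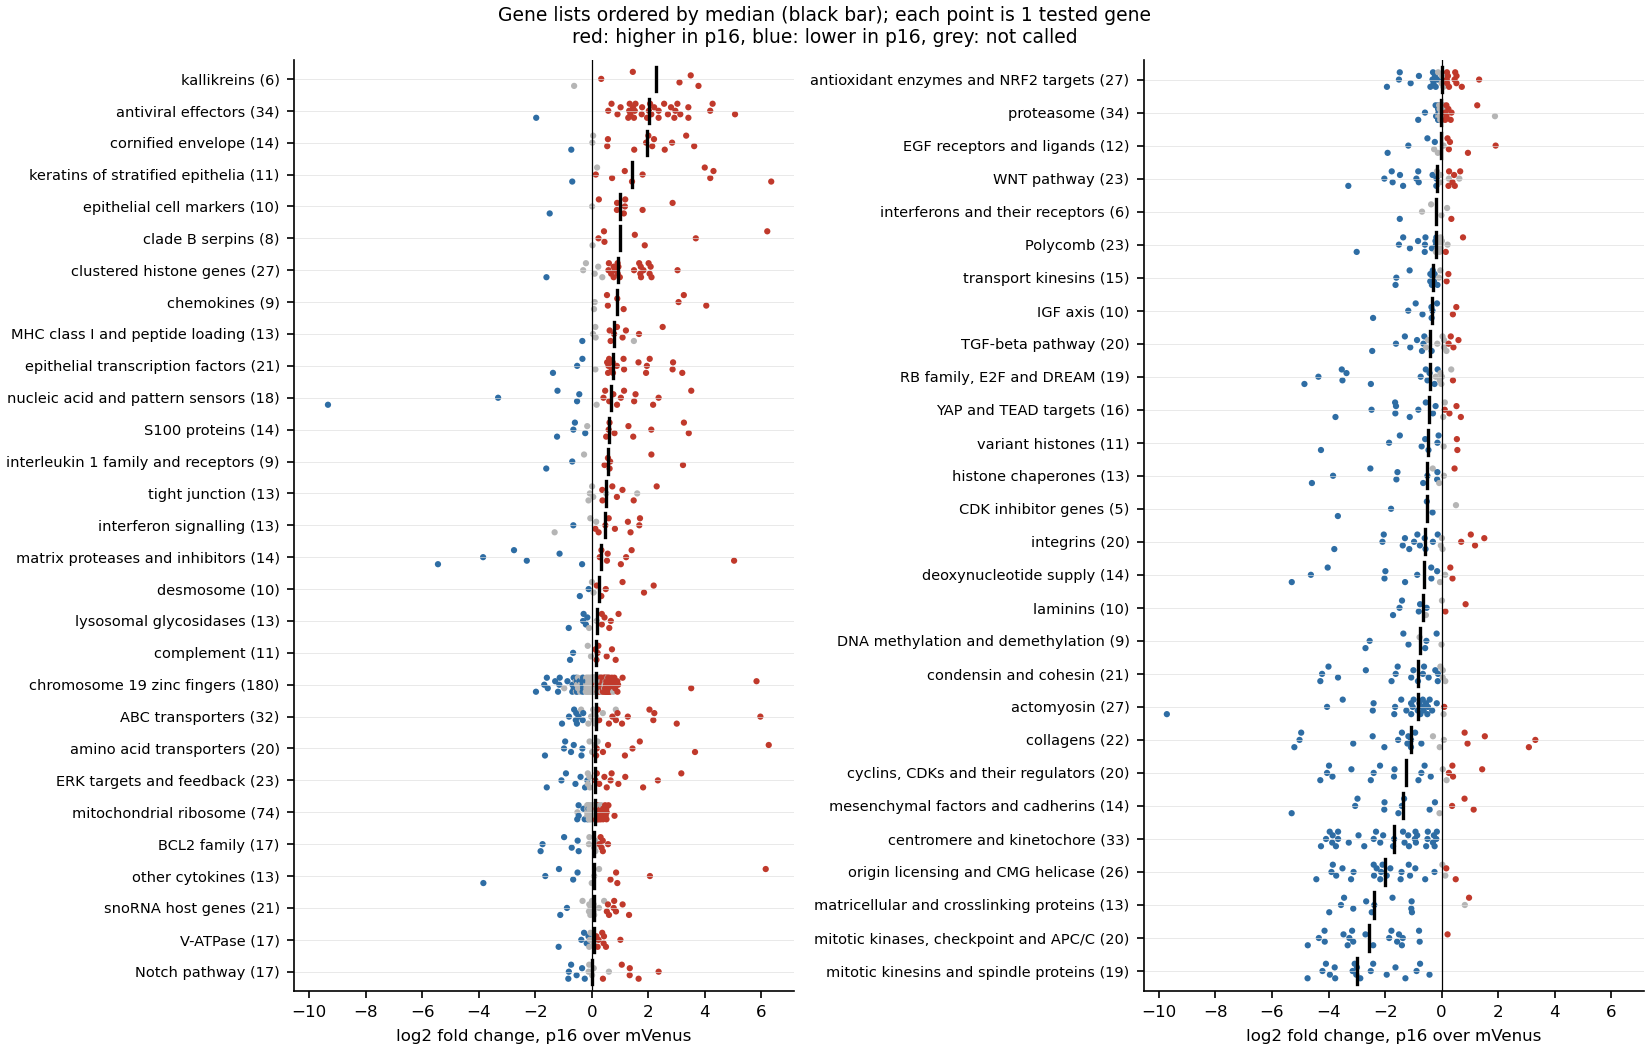
Log2 fold change of p16 over mVenus for every tested gene (points) of the lists with at least 5 tested members, ordered by the list's median (black bar), with the number tested in brackets. Red points were called higher and blue points lower; the mitotic kinesin list lies wholly to the left with a median of -3.0, and 33 of 34 antiviral effectors lie to the right.

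A second large block of rises was the response to interferon, in which secreted interferons bind receptors, JAK kinases activate transcription factors, and antiviral genes with a response element are switched on. Interferon genes themselves were nearly silent. IFNB1 had 0 counts in mVenus and 5 in p16, which is 1.85-fold higher when the empty group is set to 3 counts. It had too few counts to be tested, and these do not establish a rise. IFNL1 had 1 and 7 counts, a ratio of 7.79 (95% exact interval 1.0 to 351). The near-identical IFNL2 and IFNL3 had 1 and 7, and 2 and 11 counts. IFNE went the other way, with 7 counts in mVenus and 3 in p16, a ratio of 2.10 (95% exact interval 0.479 to 12.6). Of the 7 members not tested, 4 held more than 3 counts in p16 alone and 1 in mVenus alone. Of the 6 interferon and receptor genes tested 1 rose and 1 fell (median -0.19), the receptor gene IFNGR1 (0.34 ± 0.04) and IFNLR1, the receptor of lambda interferons (-1.48 ± 0.12).

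In interferon signalling, 9 of 13 tested genes rose and 1 fell (median 0.48). SOCS1, a feedback inhibitor of JAK kinases, measured 1.94, 2.34 and 1.31 CPM in mVenus and 5.18, 6.52 and 5.96 CPM in p16, without overlap (1.68 ± 0.19, adjusted p = 1.31e-07). The kinase TYK2 fell (-0.65 ± 0.05). Of 18 tested sensors of nucleic acids and microbial patterns, 12 rose and 5 fell (median 0.69). DDX58, which encodes the RNA sensor RIG-I, measured 76.3, 72.7 and 58.2 CPM in mVenus and 344, 311 and 410.2 CPM in p16 (2.36 ± 0.10), and DHX58, for its relative LGP2, rose from 1.07 ± 0.153 to 12.2 ± 1.15 CPM (3.52 ± 0.18). TLR2, a receptor of bacterial lipoproteins, had 260 counts in mVenus and 0 in p16, at least 77.9-fold lower against a floor of 3 counts. The p21 libraries of the series also held 0 counts of TLR2. TLR4, for bacterial lipopolysaccharide, fell from 1.37 ± 0.0147 to 0.131 ± 0.00545 CPM (-3.31 ± 0.39). It was at low counts, 70 in mVenus and 2 in each p16 library, so its small p16 SD does not cover counting error. CGAS, the sensor of DNA in the cytosol, fell from 27.4 ± 0.981 to 19.1 ± 1.41 CPM (-0.52 ± 0.07), as did NOD1 (-0.44 ± 0.10). NOD2 (-1.21 ± 0.40) lost its call without p16 replicate 2 (adjusted p = 0.0665).

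Of 34 tested antiviral effectors, 33 rose and 1 fell (median 2.04), and their summed level was 2449 to 2818 CPM in mVenus and 9608 to 11495 CPM in p16. IFIT1, which binds viral RNA lacking a mature cap, measured 57.3, 49.2 and 31.8 CPM in mVenus and 838, 788 and 1046 CPM in p16. Replicate 3 was lowest in mVenus and highest in p16, and the groups did not overlap (4.27 ± 0.14, adjusted p = 2.62e-16). MX1, a dynamin-like antiviral GTPase, went against the list and measured 9.22, 7.59 and 5.17 CPM in mVenus and 2.18, 1.38 and 2.03 CPM in p16 (-1.97 ± 0.21, adjusted p = 7.46e-08). XAF1 had 2 counts in mVenus and 72 in p16, a ratio of 40.04 (95% exact interval 10.7 to 337), with 38.3% of its exonic bases shared. The promoters of IFIT1 (chr10:89392396-89392545, plus strand) and IFI6 (chr1:27672219-27672368, minus strand, GRCh38.p14) are shown as the 2 effectors with the largest rises that could be matched, with the core of the interferon response element (GAAANNGAA, both strands) in capitals.

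IFIT1: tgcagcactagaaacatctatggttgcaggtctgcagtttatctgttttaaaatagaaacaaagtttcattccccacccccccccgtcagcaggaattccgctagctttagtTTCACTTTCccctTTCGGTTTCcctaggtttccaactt
IFI6: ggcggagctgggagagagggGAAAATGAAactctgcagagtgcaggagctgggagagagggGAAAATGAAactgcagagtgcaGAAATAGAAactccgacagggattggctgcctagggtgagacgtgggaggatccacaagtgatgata

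In IFIT1 the last match ends 16 bases before the end of the run, and in IFI6 58 bases before it. Of 29 effectors with a promoter in the table, 22 held the core (75.9%), against 6.39% of the promoters of tested genes. Among genes that rose by 8-fold or more the share was 14.6%, and among those that fell by as much 4.60%.

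Antigen presentation was measured in part. Of 20 genes of MHC class I and peptide loading 13 were tested, 8 rose and 1 fell (median 0.79). The summed level of all 20 was 1540 to 1608 CPM in mVenus and 1606 to 1717 CPM in p16, ranges that overlap. TAP1, PSMB8 and PSMB9 had 0 counts in all 6 libraries, although PSMB10, their companion outside that locus, rose from 6.13 ± 0.642 to 14.1 ± 0.765 CPM (1.21 ± 0.10, 34.8% of exonic bases shared). TAPBP and DAXX, of the same region, had 12 and 14 counts in mVenus and 1 and 2 in p16. Reads of this region may go uncounted, so these values do not show whether the genes were expressed. TAPBPL, a peptide-loading chaperone, rose (1.09 ± 0.09), and the chaperone CALR fell (-0.34 ± 0.03). HLA genes are highly similar and their counts are uncertain. The 1 MHC class II gene tested of 10 was not called (-0.11). Of 11 complement genes 7 rose and 2 fell (median 0.17), and C1RL was among those that rose (0.71 ± 0.07). SERPING1, the inhibitor of the first complement component, fell (-0.77 ± 0.11), as did CFI (-0.66 ± 0.16, 32% shared).

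Chemokines rose without a fall, 7 of 9 tested (median 0.90). CCL28, a chemokine of mucosal and glandular epithelia, measured 14.8, 14.2 and 15.5 CPM in mVenus and 141, 147 and 139 CPM in p16. Its 3 p16 libraries lay within a narrow band far above the mVenus libraries (3.26 ± 0.05, adjusted p = 8.35e-21). CXCL8, which attracts neutrophils, rose by a similar factor (3.07 ± 0.10). In the interleukin 1 family 6 of 9 tested genes rose and 2 fell (median 0.57). IL1RN, the antagonist of the interleukin 1 receptor, measured 6.87, 6.43 and 7.19 CPM in mVenus and 63.5, 62.5 and 66.8 CPM in p16 (3.23 ± 0.07), whereas the signalling receptor IL1R1 fell from 52.5 ± 1.16 to 17.2 ± 0.652 CPM (-1.61 ± 0.06). IL1RL1, the receptor of interleukin 33, rose (2.11 ± 0.14) and IL18R1 fell (-0.69 ± 0.14).

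Other cytokines moved both ways, 5 up and 5 down of 13 tested (median 0.09). TNFSF18, the ligand of the T cell receptor GITR, measured 0.262, 0 and 0 CPM in mVenus and 6.67, 7.9 and 7.92 CPM in p16. Its fitted value of 6.15 ± 0.38 rests on few mVenus counts and became 9.85 without mVenus replicate 1 and 5.55 without mVenus replicate 3. TNFSF10, the death ligand TRAIL, rose from 5.47 ± 0.64 to 22.9 ± 2.64 CPM (2.06 ± 0.12). The falls were IL11 (-3.84 ± 0.33), the granulocyte factor CSF3 (-1.65 ± 0.17), IL15 (-1.16 ± 0.12), the shared receptor chain IL6ST (-0.66 ± 0.05) and CSF1 (-0.50 ± 0.08).

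Keratins and the proteins of the outer epidermal layers formed the third block. Keratins are the intermediate filaments of epithelial cells, and the cornified envelope is the crosslinked protein shell of the most differentiated keratinocytes. Of 17 keratins of stratified epithelia 11 were tested, 9 rose and 1 fell (median 1.42), with a summed level of 6186 to 6571 CPM in mVenus and 15870.0 to 16648 CPM in p16. KRT16, a keratin of activated keratinocytes, rose from 46 ± 6.27 to 912 ± 30.4 CPM (4.31 ± 0.08), and KRT5, of the basal layer, measured 1246, 1269 and 1285 CPM in mVenus and 4559, 4266 and 4379 CPM in p16 (1.80 ± 0.03). KRT80 fell (-0.69 ± 0.06). KRT6A, KRT6B and KRT6C are near-identical and are not given singly. Of 4 keratins of simple epithelia, 3 rose and KRT7 fell (-0.34 ± 0.04; median 1.03). KRT8 rose from 989 ± 52 to 2227 ± 84.4 CPM (1.17 ± 0.05) and its partner KRT18 from 421 ± 15.5 to 783 ± 33.6 CPM (0.89 ± 0.04).

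Of 25 cornified envelope genes 14 were tested, 11 rose and 1 fell (median 1.96). CSTA, a cysteine protease inhibitor of the envelope, measured 26.2, 26.8 and 27.4 CPM in mVenus and 313, 333 and 343 CPM in p16 (3.62 ± 0.05, adjusted p = 9.65e-22). IVL, involucrin, an early envelope protein, rose from 5.76 ± 0.246 to 34.6 ± 0.797 CPM (2.58 ± 0.09). TGM5, a crosslinking transglutaminase, fell at low level (-0.73 ± 0.22). The promoters of IVL (chr1:152908395-152908544, plus strand) and SPRR1B, a small proline-rich envelope protein (chr1:153031052-153031201, plus strand, GRCh38.p14), carry AP-1 sites (TGANTCA, both strands), in capitals.

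IVL: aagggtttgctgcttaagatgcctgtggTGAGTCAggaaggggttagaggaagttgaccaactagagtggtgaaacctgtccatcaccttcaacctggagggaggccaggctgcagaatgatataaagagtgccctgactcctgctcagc
SPRR1B: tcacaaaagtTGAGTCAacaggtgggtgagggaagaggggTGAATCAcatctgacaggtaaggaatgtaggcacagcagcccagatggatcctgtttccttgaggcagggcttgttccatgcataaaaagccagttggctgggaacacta

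An AP-1 site was in 6 of the 8 cornified envelope promoters in the table (75%), against 4.93% of the promoters of tested genes. It was in 21.3% of 89 promoters of genes that rose by 8-fold or more and in 2.87% of 174 of genes that fell by as much.

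The protease systems of the skin barrier moved with these genes. Of 13 clade B serpins, intracellular protease inhibitors, 8 were tested, 7 rose and 0 fell (median 0.98). SERPINB2 measured 7.91, 8.47 and 9.75 CPM in mVenus and 105, 106 and 125 CPM in p16 (3.68 ± 0.08). SERPINB13 rose from 0.152 ± 0.146 to 10.7 ± 1.73 CPM (6.21 ± 0.33), and its fitted value was 5.56 and 6.93 without mVenus replicates 1 and 2. Of 15 kallikreins, secreted serine proteases that shed dead cells, 6 were tested, 5 rose and 0 fell (median 2.28). KLK5 measured 24.8, 22.5 and 24.2 CPM in mVenus and 357, 317 and 307 CPM in p16, with no overlap (3.77 ± 0.08, adjusted p = 7.64e-19). KLK8 rose (3.50 ± 0.21) with 40.1% of its exonic bases shared. KLK1, which was not tested, went the other way, with 55 counts in mVenus and 2 in p16, a ratio of 24.7 (95% exact interval 6.53 to 209).

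Among 14 tested S100 proteins, small calcium-binding proteins, 9 rose and 4 fell (median 0.61). S100A8 and S100A9 form calprotectin, an antimicrobial heterodimer. S100A8 measured 5.92, 6.72 and 6.92 CPM in mVenus and 72.9, 71.5 and 65.9 CPM in p16 (3.43 ± 0.08, adjusted p = 1.93e-18) and S100A9 rose from 38 ± 3.91 to 363 ± 20.9 CPM (3.26 ± 0.07). S100A6 fell from 3837 ± 135 to 2442 ± 45 CPM (-0.65 ± 0.03), and S100A3 (-1.23 ± 0.18), S100A4 (-0.60 ± 0.10) and S100A13 (-0.23 ± 0.05, 33.5% shared) fell as well.

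Cell junction genes rose in part. In the desmosome, the junction that anchors keratin filaments, 6 of 10 tested genes rose and 2 fell (median 0.26). DSG3, a desmosomal cadherin, measured 326, 344 and 368 CPM in mVenus and 1514, 1575 and 1645 CPM in p16 (2.19 ± 0.04, adjusted p = 7.54e-20), and PERP, a desmosomal membrane protein, rose from 535 ± 17 to 1924 ± 118 CPM (1.85 ± 0.04). DSG2 fell (-0.42 ± 0.03). The small fall of DSC3 (-0.11 ± 0.04) lost its call under DESeq2 size factors (adjusted p = 0.0517), without the low-count filter (0.372), in the DESeq2 Wald test (0.104), without mVenus replicate 3 (0.0918) and without p16 replicate 1 (0.105). Of 13 tested tight junction genes 7 rose and 0 fell (median 0.51), with the claudin CLDN4 from 43.3 ± 4.37 to 212 ± 11.8 CPM (2.30 ± 0.08) and cingulin, CGN (1.48 ± 0.06), highest of those called.

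Of 21 tested epithelial transcription factors 17 rose and 3 fell (median 0.75). TP63, the master factor of stratified epithelium and basal cells, measured 4.87, 5.7 and 4.96 CPM in mVenus and 35, 37.5 and 39.3 CPM in p16 (2.86 ± 0.10, adjusted p = 6.17e-16). The ETS factor EHF rose from 1.35 ± 0.191 to 12.3 ± 0.882 CPM (3.20 ± 0.17) and SOX9, of ductal progenitors, from 12.5 ± 1.1 to 91.3 ± 4.3 CPM (2.88 ± 0.07). The falls were ID2 (-1.37 ± 0.10) and ID1 (-0.33 ± 0.04), inhibitors of helix-loop-helix factors, and TFAP2C (-0.52 ± 0.07).

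**Figure D4:**
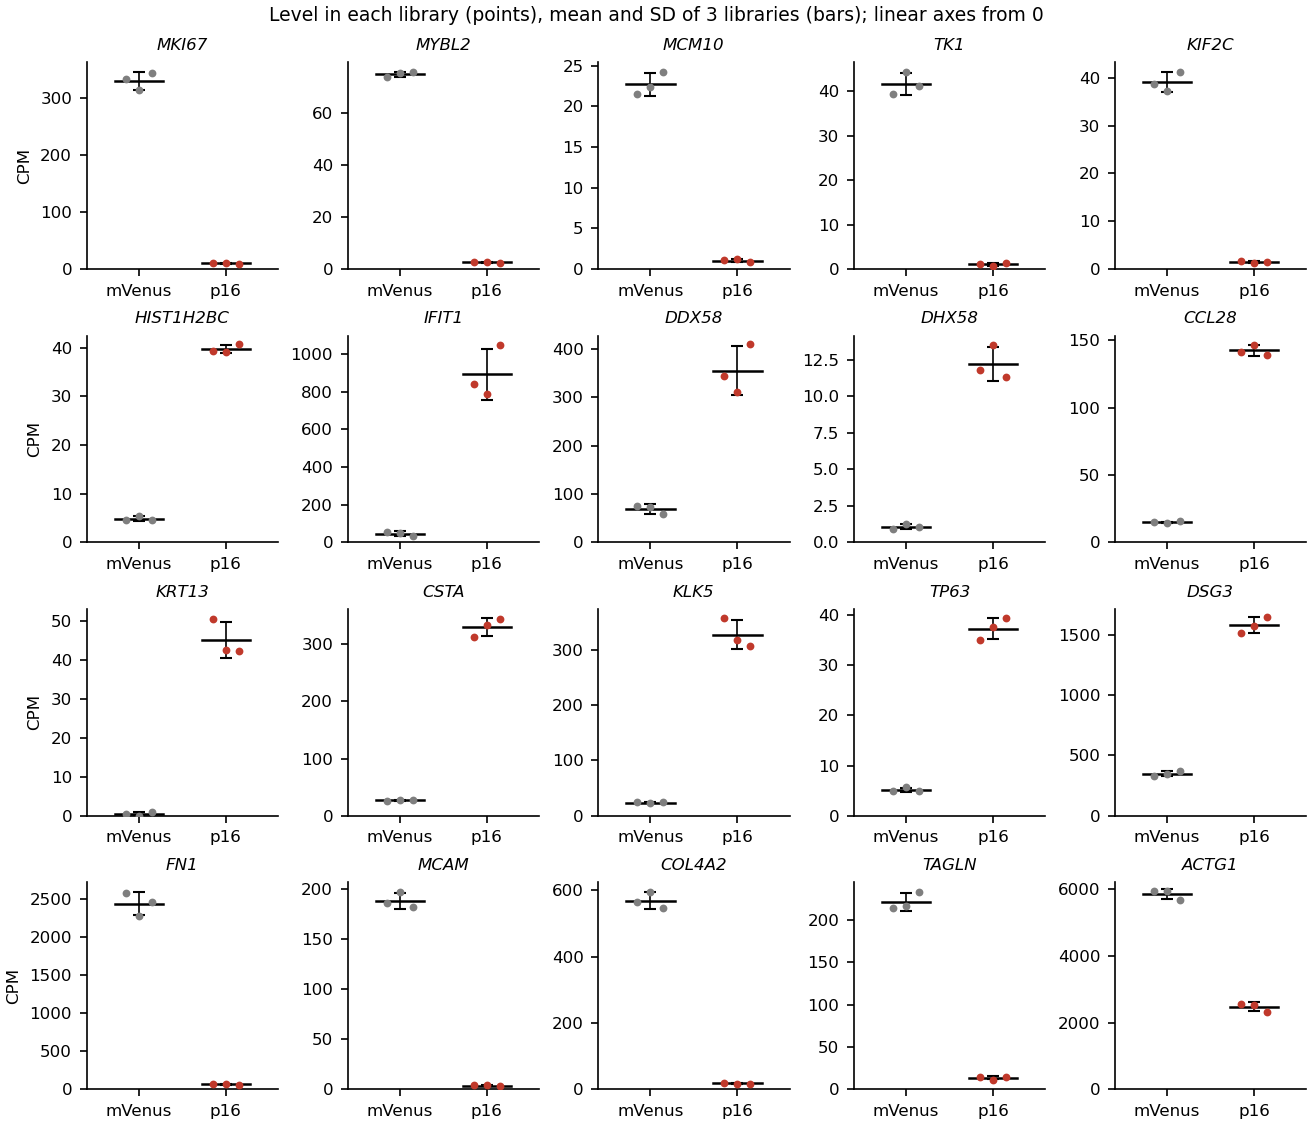
CPM in each library for 20 genes (points; mVenus grey, p16 red), with the mean and SD of 3 libraries as bars, on linear axes from 0. In every panel the 3 p16 libraries lie apart from the 3 mVenus libraries. They lie below them in the cell cycle, matrix and actin genes and MCAM, and above them in the interferon and epithelial genes, CCL28 and HIST1H2BC.

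The fourth block was the extracellular matrix and the contractile cytoskeleton, in which most lists had more falls than rises. Of 14 tested mesenchymal factors and cadherins 10 fell and 3 rose (median -1.37). FN1 measured 2584, 2280.3 and 2457 CPM in mVenus and 63.7, 65.4 and 55.9 CPM in p16 (-5.31 ± 0.10, adjusted p = 1.14e-19), and SPARC, a secreted collagen-binding protein, fell from 60.4 ± 2.05 to 7.64 ± 1.27 CPM (-2.98 ± 0.08). The members that rose were all cadherins, the epithelial CDH1 (1.13 ± 0.04, from 687 ± 28.2 to 1508 ± 39.8 CPM), the basal CDH3 (0.81 ± 0.04) and CDH13 (0.37 ± 0.06).

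Of 44 collagen genes 22 were tested, 14 fell and 5 rose (median -1.08). COL4A2, a chain of basement membrane collagen IV, measured 566, 595 and 547 CPM in mVenus and 19.4, 15.9 and 17 CPM in p16 (-5.03 ± 0.08, adjusted p = 3.64e-21). The collagens that rose include epithelial transmembrane types. COL17A1, of the hemidesmosome, rose from 419.9 ± 4.86 to 793 ± 37.6 CPM (0.92 ± 0.04) and COL13A1 from 3.64 ± 0.497 to 31 ± 0.673 CPM (3.09 ± 0.09). COL4A6 (0.81 ± 0.05) and, at low levels, COL2A1 (3.32 ± 0.47) and COL5A3 (1.53 ± 0.33) rose too. Of 10 laminins 6 fell and 2 rose (median -0.66). LAMB3, a chain of the laminin of epithelial basement membranes, fell from 1956 ± 78 to 696 ± 44.5 CPM (-1.49 ± 0.04), while LAMB1 (0.13 ± 0.03) and LAMA2 (0.85 ± 0.26) rose.

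Integrins, the receptors of these proteins, were listed with 2 tested genes of integrin-binding proteins. Of the 20 tested 13 fell and 4 rose (median -0.58), while the summed level of the list was higher in p16, 6264 to 6426 CPM in mVenus and 8119.9 to 8701 CPM in p16. The fibronectin receptor chain ITGA5 fell from 587 ± 12.4 to 239 ± 14.9 CPM (-1.30 ± 0.04), and ITGB6 fell (-1.14 ± 0.06). Among those that rose were ITGB4, a receptor chain for laminin, from 1145 ± 46.9 to 2598 ± 165 CPM (1.18 ± 0.04) and ITGA3, another, from 1417 ± 35.9 to 2898 ± 214 CPM (1.03 ± 0.04). The others were ITGB8 (1.51 ± 0.08) and ITGA10 (0.69 ± 0.11). Of 14 tested matrix proteases and inhibitors 8 rose and 6 fell (median 0.31). SERPINE2, an inhibitor of serine proteases, fell (-2.75 ± 0.09). The membrane protease MMP15 rose (1.21 ± 0.08), and so did the urokinase gene PLAU (1.41 ± 0.07), with 31.1% of its exonic bases shared. MMP28 had 3 counts in mVenus and 100 in p16, a ratio of 37.1 (95% exact interval 12.3 to 183).

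Matricellular and crosslinking proteins fell in 11 of 13 tested genes (median -2.38), and their summed level was 5527 to 5867 CPM in mVenus and 1349.6 to 1448 CPM in p16. TGFBI, a TGF-beta-induced adhesion protein, measured 4099, 3914 and 3813 CPM in mVenus and 263, 227 and 261 CPM in p16 (-3.98 ± 0.06, adjusted p = 2.96e-21). FSTL1 fell from 241 ± 13.7 to 20.4 ± 1.23 CPM (-3.56 ± 0.07), and fibulin 1, FBLN1, rose from 434 ± 14.6 to 850.1 ± 47.1 CPM (0.97 ± 0.04). In actomyosin, 25 of 27 tested genes fell (median -0.84). TAGLN, an actin-binding protein of contractile cells, measured 214, 217 and 234 CPM in mVenus and 14.7, 11.3 and 14 CPM in p16 (-4.05 ± 0.07). MYH14, a non-muscle myosin heavy chain, had 343 counts in mVenus and 0 in p16, at least 103-fold lower against a floor of 3 counts. The p21 libraries also held 0 counts of MYH14. FLNA, filamin A, fell from 3479.8 ± 72.2 to 643 ± 37.7 CPM (-2.44 ± 0.04). The only rise, MYL12B (0.09 ± 0.03), lost its call without mVenus replicate 2 (adjusted p = 0.0533) or 3 (adjusted p = 0.0601). ACTA2, smooth muscle actin, fell (-1.02 ± 0.08) with 30.1% of its exonic bases shared.

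Signalling genes moved member by member. Of 12 EGF receptor and ligand genes 5 rose and 4 fell (median -0.03), and the ligands differed in direction. EPGN, epigen, rose from 122 ± 4.41 to 458 ± 14.4 CPM (1.91 ± 0.04) and AREG, amphiregulin, measured 597, 580.3 and 513 CPM in mVenus and 155, 143 and 151 CPM in p16 (-1.91 ± 0.06, adjusted p = 8.39e-17). EREG (-0.50 ± 0.15) and NRG1 (-1.18 ± 0.19) fell, the receptor EGFR fell (-0.24 ± 0.03) and ERBB3 rose (0.93 ± 0.05). Of 23 tested ERK targets and feedback genes 12 rose and 7 fell (median 0.13). MYC, which drives growth and is itself a target of E2F and of mitogens, measured 64.4, 64.6 and 64.8 CPM in mVenus and 336, 313 and 331 CPM in p16. It was 5.05-fold higher in p16 (2.34 ± 0.04, adjusted p = 3.9e-20). The feedback inhibitor SPRY1 rose (3.17 ± 0.17), the immediate early gene EGR1 fell from 384 ± 17.5 to 127 ± 0.14 CPM (-1.59 ± 0.04) and the phosphatase DUSP2 fell (-1.07 ± 0.14).

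In the TGF-beta pathway 9 of 20 tested genes fell and 4 rose (median -0.42). The ligand TGFB2 (-2.46 ± 0.22) and the feedback repressor SKIL (-1.62 ± 0.09) fell, while both receptors, TGFBR1 (0.32 ± 0.07) and TGFBR2 (0.42 ± 0.03), and the latent binding proteins LTBP2 (0.25 ± 0.05) and LTBP3 (0.60 ± 0.06) rose. In the Notch pathway 6 of 17 rose and 6 fell (median 0.01). NOTCH3 measured 8.49, 8.03 and 8.06 CPM in mVenus and 45, 44.3 and 37.5 CPM in p16 (2.36 ± 0.09), the target HES1 rose from 12.6 ± 0.724 to 39.7 ± 2.29 CPM (1.66 ± 0.07), and NOTCH2 (-0.81 ± 0.04) and HES4 (-0.83 ± 0.07) fell. Of 23 WNT genes 12 fell and 6 rose (median -0.18). Among members with at least 5 CPM in the higher group the ligand WNT9A (-1.76 ± 0.07) and the receptor FZD7 (-1.47 ± 0.10) had the largest falls, and the antagonist SFRP1 rose (0.47 ± 0.03). RNF43 (0.66 ± 0.13) shares 73.9% of its exonic bases and is uncertain.

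Targets and partners of YAP and TEAD, which respond to stretch and contact, fell in 10 of 16 genes and rose in 4 (median -0.43). CTGF, a secreted matricellular protein, measured 123, 117 and 108 CPM in mVenus and 9.04, 8.1 and 8.6 CPM in p16 (-3.76 ± 0.09, adjusted p = 1.56e-18), and the receptor kinase AXL fell from 74.6 ± 6.11 to 13.4 ± 0.839 CPM (-2.48 ± 0.08). AMOTL2 (0.68 ± 0.04), AMOTL1 (0.28 ± 0.04) and AJUBA (0.53 ± 0.05) rose. YAP1 itself (0.11 ± 0.04) lost its call without mVenus replicate 1 (adjusted p = 0.0840) or p16 replicate 3 (adjusted p = 0.135). In the IGF axis 8 of 10 tested genes fell and 2 rose (median -0.36). The binding proteins IGFBP6 (-2.42 ± 0.08) and IGFBP7 (-0.92 ± 0.05) fell, and IGFBP2 (0.52 ± 0.07) and the adaptor IRS2 (0.40 ± 0.05) rose.

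In the BCL2 family 6 of 17 rose and 6 fell (median 0.09), with the death effector BAX (-0.71 ± 0.07) and the sensitiser BAD (-0.98 ± 0.09) lower and BID (0.57 ± 0.06) and HRK (0.39 ± 0.09) higher. Of 20 amino acid transporters 9 rose and 7 fell (median 0.13). After SLC6A14, the peptide carrier SLC15A2 rose most, from 1.86 ± 0.572 to 22.8 ± 1.09 CPM (3.65 ± 0.13), and SLC1A4 (-1.66 ± 0.13) and SLC36A4 (-0.98 ± 0.09) fell. Of 32 tested ABC transporters 13 rose and 9 fell (median 0.14). ABCC2, an export pump for conjugates, measured 14.5, 17.2 and 18 CPM in mVenus and 135, 138 and 124 CPM in p16 (3.0 ± 0.07), and the sterol exporter ABCG1 rose (2.21 ± 0.22), while ABCC1 (-1.05 ± 0.14) and ABCC3 (-0.62 ± 0.04) fell. Antioxidant enzymes and NRF2 targets were divided, 11 up and 12 down of 27 (median 0.00). The peroxiredoxins PRDX5 (1.33 ± 0.04) and PRDX6 (0.71 ± 0.03) rose, and the heme oxygenase HMOX1 (-1.93 ± 0.19) and the metallothioneins MT1E (-1.51 ± 0.07) and MT2A (-1.48 ± 0.05) fell.

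Lists of the lysosome, the proteasome and ribosome-related genes had medians closer to that of all genes. Of 13 lysosomal glycosidases 6 rose and 5 fell (median 0.17), with GAA (0.95 ± 0.06) and MANBA (0.67 ± 0.05) highest and GUSB (-0.82 ± 0.07) and FUCA1 (-0.31 ± 0.06) among the lower. Of 17 V-ATPase subunits 8 rose and 5 fell (median 0.06), from ATP6V0A4 (-1.17 ± 0.07) to ATP6V1C2 (1.01 ± 0.08). Of 34 proteasome subunits 8 rose and 10 fell (median -0.02), PSMD2 lowest (-0.83 ± 0.04). Of 74 mitochondrial ribosomal proteins 29 rose and 7 fell (median 0.11), MRPL36 highest (0.80 ± 0.06). Of 21 snoRNA host genes 8 rose and 2 fell (median 0.08). GAS5, a growth arrest transcript, measured 52.6, 56.2 and 50.6 CPM in mVenus and 136, 132 and 129 CPM in p16 (1.32 ± 0.04), and SNHG8 rose (1.09 ± 0.07). Of 180 zinc finger genes on chromosome 19, 61 rose and 26 fell (median 0.15). ZNF813 was apart from the rest, 0.0524, 0.292 and 0 CPM in mVenus and 5.36, 5.93 and 6.77 CPM in p16, with a fitted value of 5.83 ± 0.34 that became 7.44 without mVenus replicate 2 and 5.22 without mVenus replicate 3.

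Cells expressing mVenus fused to p21, a broader CDK inhibitor, formed another group of the series. The contrast of p16 with p21 was taken from the same fit, so its fold changes compare no mVenus library, but all 12 libraries entered the estimate of spread. It called 3938 genes higher in p16 (27.2%) and 3944 lower (27.2%). The keratins of stratified epithelia were higher in p16 in 10 of 11 tested and lower in 0, S100 proteins in 11 of 14 and 0, epithelial transcription factors in 15 of 21 and 2, and tight junction genes in 8 of 13 and 0. KRT14, a basal keratin, measured 32, 32.1 and 27.2 CPM in the p21 libraries against 466 ± 16.3 CPM in p16, a log2 difference of 3.94 ± 0.07 (adjusted p = 5.81e-20). KRT13 differed by 5.50 ± 0.17, S100A8 by 6.92 ± 0.13 and SLC6A14 by 6.28 ± 0.19. TP63 (3.06 ± 0.10), SOX9 (2.79 ± 0.07), NOTCH3 (3.22 ± 0.10) and CCL28 (3.55 ± 0.05) were also higher in p16, in each case with every p16 library above every p21 library.

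Complement, collagen and mesenchymal lists had more genes lower than higher in p16 against p21. Complement genes were lower in 9 of 11 tested and higher in 0, collagens in 12 of 22 and higher in 5, and mesenchymal factors and cadherins in 11 of 14 and higher in 2. FN1 measured 1411, 1567 and 1790.4 CPM in p21 against 61.7 ± 5.04 CPM in p16 (-4.69 ± 0.10, adjusted p = 1.4e-18). DCN, decorin, a fibroblast marker, stood at 109 ± 2.24 CPM in p21 and 3.03 ± 0.197 in p16 (-5.17 ± 0.08), and COL4A2 at 175 ± 8.79 and 17.4 ± 1.8 CPM (-3.32 ± 0.08). TLR4, with only 6 counts in p16, stood at 3.82 ± 0.393 and 0.131 ± 0.00545 CPM (-4.79 ± 0.33). Mitotic lists had more genes higher than lower in p16 against p21, to unequal degrees. Of 20 mitotic kinase and checkpoint genes 17 were higher and 2 lower, and of 19 mitotic kinesins and spindle proteins 14 and 1. Of 33 centromere and kinetochore genes 13 were higher and 2 lower, and of 21 condensin and cohesin genes 11 and 2. MKI67 differed by 1.59 ± 0.11 (adjusted p = 2.51e-10). The antiviral effectors did not take a side, 12 higher and 12 lower of 34, and IFIT1 differed by 0.24 ± 0.11 (adjusted p = 0.072).

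**Figure D5:**
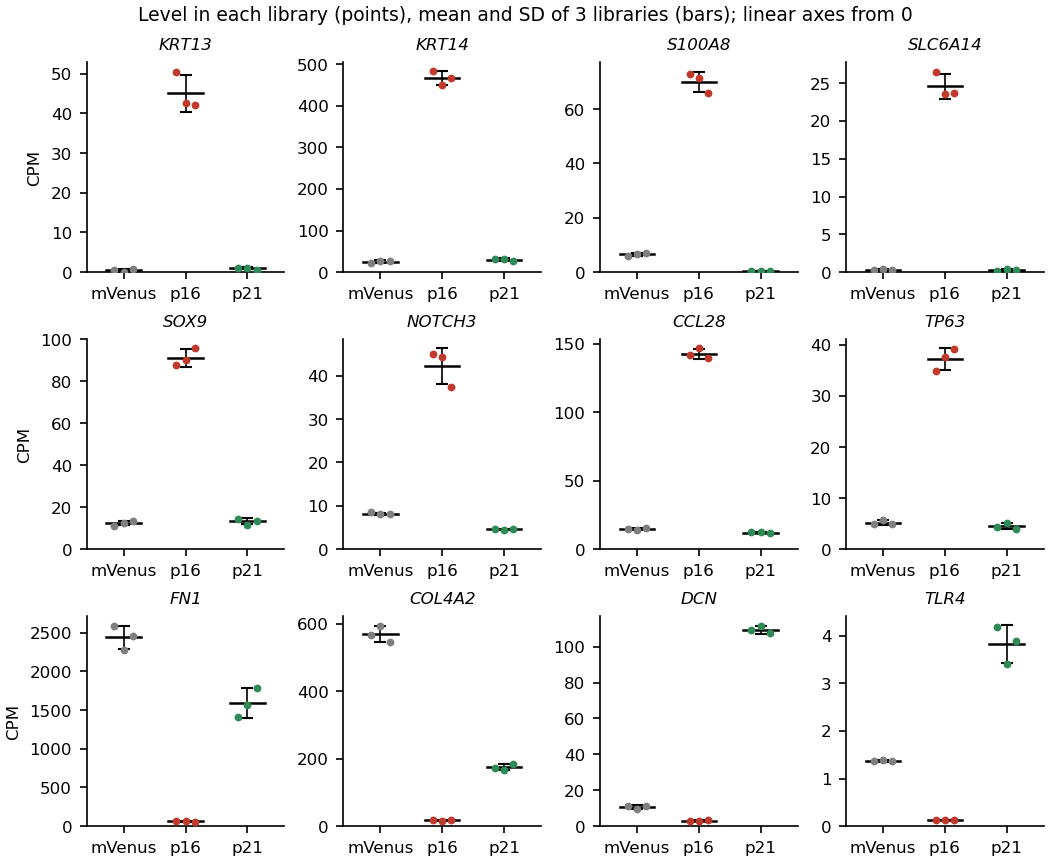
CPM in each library of the mVenus (grey), p16 (red) and p21 (green) groups for 12 genes, with the mean and SD of 3 libraries as bars, on linear axes from 0. KRT13, KRT14, S100A8, SLC6A14, SOX9, NOTCH3, CCL28 and TP63 are highest in p16, FN1 and COL4A2 are lowest in p16, and DCN and TLR4 are highest in p21.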

How the data were processed

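RNA of 6 MCF10-A libraries (3 mVenus, 3 p16) was compared, with the 6 remaining libraries in the same fit. Libraries were made with a stranded KAPA kit after oligo-dT selection, per the labels' protocols. The authors deposited whole-number counts per gene for each library, not normalized. Per the file headers, featureCounts 1.6.3 counted exons of GENCODE 29 by gene name, with strand, read pairs and multimapping left at their defaults. The submitters' processing notes name the build GRCh38.p7 and the tools FastQC 0.11.3, HISAT2, featureCounts, Subread and DESeq2. Reads of overlapping genes on either strand therefore cannot be told apart, and 68 listed genes with over 30% of exonic bases shared are uncertain. All 57133 gene names matched GENCODE 29. The authors' tables of comparisons were not used here.

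From the counts, edgeR 4.0.16 in R 4.3.3 kept 14504 genes by its filterByExpr rule and scaled libraries by TMM. Its quasi-likelihood test was used with 1 coefficient for each of the groups (8 residual degrees of freedom, two-sided, Benjamini-Hochberg adjusted p under 0.05). The common biological coefficient of variation was 3.94%. Against a group at 0 counts a fold is a lower bound, set against 3 counts over the group (0.0587 CPM in mVenus, 0.0652 in p16). That bound takes the counts of the other group as exact. Where a group held 1 to 3 counts, the ratio has a 95% exact interval. Both cover counting error only. P-values set the difference between groups against the spread between libraries of a group, estimated from all 12 libraries. That spread does not include variation between independently made lines.

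The comparison, the 66 gene lists (1566 genes, 1192 tested) and the rules were chosen with earlier results of these data known, and no list was tested as a set. Named genes were CDKN2A, CDKN2B, MTAP, CDKN1A, CDKN2C, MKI67, CCNE2 and E2F1, and per list up to 2 rises and 2 falls with at least 5 CPM and no overlap. Members called against the list's direction were added where 5 or fewer. So were the 10 largest rises and falls with at least 20 CPM and the 10 largest gains and losses in CPM. Some genes taken by these rules are not reported here. HIST1H1B, TAPBP, DAXX, IFNB1, IFNL1, IFNL2, IFNL3, IFNE, XAF1, MMP28, KLK1, PECAM1, CDKN1B and CDKN1C, and the genes whose promoters are printed, were named after their values were seen.

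Promoters are RefSeq sequences on GRCh38.p14, matched by symbol for 10044 tested genes. Code was tested on simulated counts. Alternatives were DESeq2 size factors, upper quartile scaling, a fit of all genes with no filter, a fit of only the 6 libraries, a replicate block, the Wald test of DESeq2 1.42.0 and each library left out. Figures were drawn with matplotlib 3.10.9 in Python 3.11.15.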

Additional observations from a re-analysis of the deposited data

How the results depend on the processing

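Under 12 alternatives the counts of genes higher, lower, and 2-fold higher or lower in p16 all stayed within 1.5 times the values in the report. With DESeq2 size factors 4654 genes were higher and 4569 lower, with upper quartile scaling 4430 and 4806, and without the low-count filter 5149 and 4452. With the DESeq2 Wald test 4187 were higher and 4167 lower, and with only the 6 libraries compared 4324 and 4562. Leaving out 1 library at a time gave 4130 to 4370 higher and 4435 to 4683 lower genes. No scaling moved the median of all genes by more than 0.05 on the log2 scale. Of the 9238 called genes, 8060 were also called by the DESeq2 Wald test.

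For single named genes, 3069 values kept direction and call, 39 kept direction and lost the call, and 0 reversed. Of the list counts, 1539 stayed within 1.5 times and 45 moved, all from small numbers. With the replicate block, 4419 genes were higher and 4696 lower, and 9068 of its 9115 calls were shared. Same-numbered libraries correlated in their deviations by 0.0162, 0.0123 and 0.0338, and libraries of other numbers by -0.0455 to 0.0283. Of 6 libraries, 4 correlated best with their own number. These few values cannot decide whether the numbers mark pairs. The numbers are not stated to mark a shared batch, so the block was kept as an alternative. Depth limits genes with few counts: a group with 0 counts can hold up to 0.0587 CPM in mVenus and 0.0652 in p16.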

Other observations

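Gene classes outside the lists moved unevenly. Of 12143 protein-coding genes tested, 3885 rose and 4429 fell (median log2 fold change -0.03). Of 407 long intergenic noncoding RNAs, 139 rose and 59 fell (median 0.30), and of 517 antisense genes 136 rose and 76 fell (median 0.27). Of 840 processed pseudogenes 202 rose and 75 fell (median 0.19). Antisense genes and pseudogenes share sequence or position with other genes, and their counts are uncertain.

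By exonic length, the shortest 3629 tested genes (up to 2728 bases) had a median of 0.12, with 32.3% higher and 20.2% lower. The longest 3626 (7219 bases or more) had a median of -0.08, with 28.0% higher and 42.1% lower. Longer genes collect more counts, and the part of length, depth or gene class in this difference was not tested.

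Within 1 Mb of CDKN2A, 18 of 56 annotated genes had a count in any of the 12 libraries. Over all genes, 30296 of 57133 gene names had one. Many genes of this window without a count are interferon genes or interferon pseudogenes, and the extent of the lost locus was not tested.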
